A study of Mus musculus with 6 samples.

Results

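The FGF genes described here comprise every mouse Fgf gene with a number, the 4 signalling receptor genes Fgfr1 to Fgfr4, the receptor-like gene Fgfrl1, the feedback inhibitor genes Spry1 to Spry4, Spred1 to Spred3 and Dusp4 to Dusp6, and the ETS factor genes Etv1, Etv4 and Etv5. They were chosen by name, with earlier results of these data known, and number 40 of the 24809 genes of the deposited expression table. RNA sequencing was done on C2C12 cells, an established line of mouse myoblasts whose cells fuse into myotubes when growth factors are withdrawn. Cells with forced expression of the homeobox gene Msx1 (n = 3) were compared with control cells (n = 3), whose columns in the deposited table carry the name of a vector. The labels give the genotype of each group and nothing on the construct, the number of clones, the culture stage or the density at harvest. The comparison asks which transcripts differ in myoblasts when Msx1, a factor of undifferentiated mesenchyme, is raised.

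Fibroblast growth factors are ligands that bind receptor tyrosine kinases together with heparan sulfate chains of the cell surface. The active receptor signals through the docking protein Frs2 to Ras and the kinase ERK, and ERK activity switches on genes whose products feed back on the same route. In myoblasts FGF signalling is known for keeping cells dividing and holding back fusion, and Fgfr1 and Fgfr4 are its receptors best known in this lineage.

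Values are FPKM (fragments per kilobase of transcript, scaled to the mapped fragments of the library), summed over the RefSeq transcripts of a gene. A log2 change is the difference of the means of log2(FPKM + 1), Msx1 minus control, with the moderated standard error (SE) and Benjamini-Hochberg adjusted p of limma over all 12371 genes tested, those whose mean reached 0.5 FPKM. A gene was called higher or lower at an adjusted p under 0.05. Ratios are ratios of group mean FPKM. Estimated depth was 18700000 to 23800000 fragments per library. Msx1 itself was at 1004, 944 and 912 FPKM in the Msx1 libraries, against 7.99, 7.13 and 7.54 FPKM in the control libraries (log2 change 6.80), with p = 0.1 in a two-sided exact permutation test, which cannot go lower with 3 libraries a group. Of all genes tested, 54.4% were called, 22.0% higher and 32.4% lower, so a call alone was common in these data. Scaling moved that split from a surplus of lower calls to 3321 higher and 3155 lower with median-of-ratios factors and 3503 higher and 2807 lower when totals were made equal with Msx1 left out. The groups of a gene did not overlap for 62.3% of all genes tested. The myoblast markers Myod1, Des, Cdh15 and Pax7 were present at 8.56 FPKM or more in every library, while Msc and Vgll2 stayed at or below 0.178 FPKM. Myf5, another myoblast marker, was at 1.70, 1.53 and 1.70 FPKM in the Msx1 libraries, against 8.55, 9.25 and 9.22 FPKM in the control libraries, the largest change of the 6 tested (log2 change -1.92, adjusted p = 2.77e-07). The 8 myoblast markers (6 tested, 1 higher and 3 lower) summed to 178 to 188 FPKM in Msx1 and 214 to 216 FPKM in control libraries. Of 9 markers of leukocytes, endothelium and epithelium, Ptprc, Adgre1 and Epcam were at 0 in every library, and the 9 together summed to 1.74 to 2.21 FPKM in Msx1 and 2.90 to 3.56 FPKM in control libraries. Most of that sum was Cd68, at 1.05 ± 0.114 FPKM in Msx1 and 3.00 ± 0.366 FPKM in control libraries (SD, n = 3 each), while Cdh5, Kdr, Cdh1 and Krt8, all at 0.703 FPKM or less, were above every control library in every Msx1 library. Myotube markers (11 genes, 6 of 7 tested called higher) summed to 55.7 to 65.9 FPKM in Msx1 and 13.2 to 15.7 FPKM in control libraries, and mitosis markers (12 of 12 called lower) to 92.3 to 102 FPKM in Msx1 and 256 to 287 FPKM in control libraries. The part of these shifts in the FGF results was not tested, and in bulk RNA fewer cells of a state and less RNA per cell cannot be told apart.

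The FGF genes that were called split between rises and falls, with members of the same family on opposite sides. On the log2(FPKM + 1) scale Fgf18, Fgfrl1 and Spry1 rose most, and Fgf10 and Fgf7 fell most. That order depends on the pseudocount for genes near 0 in control cells: with 0.1 in place of 1, Fgf18 was at 4.46 and Fgf9 at 3.77, above Spry1 at 2.13 and Fgfrl1 at 2.04. Within families, Spry1 rose while Spry2 fell, and Dusp4 rose while Dusp5 and Dusp6 fell. Of the 40 genes, 23 reached the minimum for testing, of which 10 were called higher (background 22.0%), 5 lower (background 32.4%) and 8 were not called. Fgf18 and Fgf9 reached the minimum only through their Msx1 level and so had to differ. Of the 21 genes that reached 0.5 FPKM in both group means, 8 were called higher, 5 lower and 8 were not called. Among these 21, all Msx1 libraries lay above all control libraries for 10 genes (background 25.5%) and below them for 5 (background 36.8%). These backgrounds are over all genes tested, with no minimum for each group mean. The median log2 change of these 21 genes was 0.084, beside -0.067 over all genes tested. A call with an absolute log2 change of at least 1 was made for Fgfrl1, Spry1, Spred2, Fgfr1, Dusp4, Fgf7 and Fgf10. Fgf18 and Fgf9 had one as well, but had to differ. Among all genes tested, with no minimum for each group mean, 7.53% had one.

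**Figure D1:**
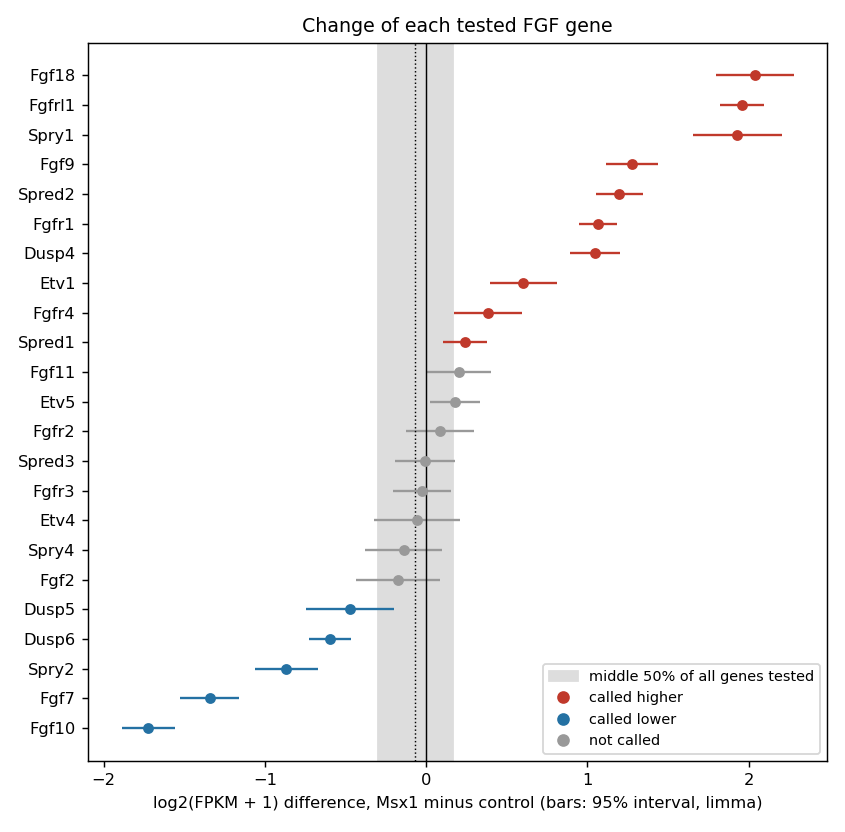
Log2(FPKM + 1) difference, Msx1 minus control, of the 23 FGF genes tested, with the 95% interval from limma as bars, coloured by call. The grey band holds the middle 50% of all genes tested and the dotted line their median. Fgf18 at 2.04 and Fgf10 at -1.72 stand at the ends.

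The promoters of the 5 FGF genes with the largest absolute changes on this scale are printed here so that the genes that moved can be set side by side. With a pseudocount of 0.1, Fgf9, whose window is not printed, would take the place of Fgf7 (log2 change -1.36). Each line gives the 250 bases before the annotated start of the gene from RefSeq (GRCm38.p6), 5′ to 3′ on the gene's strand. Capitals mark a match to the homeodomain core TAATTG or to the ETS core CCGGAAG, searched on both strands.
Fgf18, chr11:33147401-33147650, - strand: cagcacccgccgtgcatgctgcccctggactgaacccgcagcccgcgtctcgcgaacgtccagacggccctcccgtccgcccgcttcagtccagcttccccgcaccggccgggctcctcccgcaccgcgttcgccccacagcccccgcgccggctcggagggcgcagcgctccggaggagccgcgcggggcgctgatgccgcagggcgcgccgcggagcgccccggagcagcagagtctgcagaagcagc
Fgfrl1, chr5:108693979-108694228, + strand: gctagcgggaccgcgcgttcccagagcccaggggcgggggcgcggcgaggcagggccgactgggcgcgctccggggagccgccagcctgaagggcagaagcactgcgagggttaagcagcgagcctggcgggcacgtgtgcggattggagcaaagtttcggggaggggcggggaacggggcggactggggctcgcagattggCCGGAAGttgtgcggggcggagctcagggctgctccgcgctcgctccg
Spry1, chr3:37639697-37639946, + strand: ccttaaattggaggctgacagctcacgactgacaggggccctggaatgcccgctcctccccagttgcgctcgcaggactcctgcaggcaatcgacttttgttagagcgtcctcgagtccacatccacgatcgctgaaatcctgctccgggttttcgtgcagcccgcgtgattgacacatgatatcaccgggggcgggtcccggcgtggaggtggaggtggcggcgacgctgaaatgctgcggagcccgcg
Fgf10, chr13:118714449-118714698, + strand: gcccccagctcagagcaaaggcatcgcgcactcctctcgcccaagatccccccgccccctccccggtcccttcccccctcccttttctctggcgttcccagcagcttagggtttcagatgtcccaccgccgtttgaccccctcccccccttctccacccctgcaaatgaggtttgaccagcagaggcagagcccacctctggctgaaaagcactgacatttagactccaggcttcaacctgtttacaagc
Fgf7, chr2:126034408-126034657, + strand: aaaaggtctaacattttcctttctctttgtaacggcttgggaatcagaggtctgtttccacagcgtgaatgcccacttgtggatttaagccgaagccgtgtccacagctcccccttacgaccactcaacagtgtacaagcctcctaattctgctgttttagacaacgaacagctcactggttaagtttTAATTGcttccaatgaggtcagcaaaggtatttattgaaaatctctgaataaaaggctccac
The window of Fgf18 was 77.2% G or C with 37 CG pairs, that of Fgfrl1 73.6% with 30, and that of Spry1 62.4% with 23. The windows of Fgf10 and Fgf7 held fewer CG pairs, 8 at 61.2% G or C for Fgf10 and 6 at 43.6% for Fgf7. These genes were picked by the size of their change. Windows of Spry2, Dusp5 and Dusp6, which were also called lower, are not printed, so no difference between rising and falling genes can be read from these. Over all 32851 RefSeq windows the medians were 52.4% and 6 CG pairs. The homeodomain core began 62 bases before the start of Fgf7, and the ETS core 48 bases before that of Fgfrl1. Windows were at hand for 29 of the 40 genes (38 windows). TAATTG was found in windows of Fgf7 and Etv1 and in 7.17% of all windows, and CCGGAAG in the window of Fgfrl1 and in 6.91% of all windows. These matches describe letters in a window and show no binding.

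Among the secreted ligands, the 2 abundant ones fell and a pair that was near 0 in control cells rose. Fgf7 (keratinocyte growth factor; chromosome 2, 126034658 to 126091185, GRCm38) was at 47.4, 47.5 and 43.8 FPKM in the Msx1 libraries, against 105, 127 and 125 FPKM in the control libraries. The groups did not overlap, and the Msx1 mean was lower by a ratio of 2.58 (log2 change -1.34, SE 0.080, adjusted p = 4.72e-06). Fgf10 (chromosome 13, 118714699 to 118792573) was at 8.47, 7.89 and 8.26 FPKM in the Msx1 libraries, against 26.7, 31.7 and 29.97 FPKM in the control libraries, lower by a ratio of 3.59 (log2 change -1.72, SE 0.071, adjusted p = 7.42e-07). Fgf7 and Fgf10 are closely related ligands that mesenchyme supplies to epithelia through the IIIb form of Fgfr2. Fgf18 (chromosome 11, 33116970 to 33147400), a ligand of growing bone and cartilage, was at 3.79, 3.58 and 2.73 FPKM in the Msx1 libraries, against 0.0277, 0.0943 and 0.0529 FPKM in the control libraries (log2 change 2.04, SE 0.10, adjusted p = 2.23e-06). Every Msx1 library was far above every control library, whose values stand near the limit of detection, so the size of the log2 change depends on the pseudocount. Fgf9 (chromosome 14, 58070671 to 58112854), which acts mainly on the IIIc forms of the receptors, was at 1.44, 1.44 and 1.51 FPKM in the Msx1 libraries, against 0.0360, 0 and 0.0101 FPKM in the control libraries (log2 change 1.28, SE 0.070, adjusted p = 3.02e-06). For its single transcript these levels stand for about 51, 53 and 50 fragments in the Msx1 libraries and 1, 0 and 0 in the control libraries. Fgf2, the basic FGF long used to keep myoblasts dividing in culture, was at 4.53, 4.996 and 4.37 FPKM in the Msx1 libraries, against 4.70, 6.56 and 4.96 FPKM in the control libraries. Its groups overlapped and it was not called (log2 change -0.18, 95% interval -0.44 to 0.083, adjusted p = 0.218). Exons of Nudt6, on the opposite strand, overlap those of Fgf2 (8.18 FPKM in Msx1 and 8.52 in control cells), and no source used here says that reads were assigned by strand.

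The sum over all 18 secreted ligands was 67.7, 67.0 and 62.0 FPKM in the Msx1 libraries, against 137, 167 and 160.4 FPKM in the control libraries. Ligand RNA was therefore lower in every Msx1 library than in any control library. Fgf7 made up 70.6% ± 0.433 in Msx1 and 77.0% ± 0.726 in control libraries, and Fgf10 12.5% ± 0.771 in Msx1 and 19.0% ± 0.380 in control libraries (SD, n = 3 each). The share of Fgf18 was 5.12% ± 0.634 in Msx1 and 0.0366% ± 0.0184 in control libraries, and that of Fgf9 2.24% ± 0.175 in Msx1 and 0.0108% ± 0.0137 in control libraries. Fgf2 held 7.07% ± 0.384 in Msx1 and 3.48% ± 0.421 in control libraries. The order Fgf7, Fgf10, Fgf2 held in all 6 libraries, and Fgf18 came next in the Msx1 libraries, its highest value of 3.79 FPKM lying below the lowest Fgf2 value there of 4.37 FPKM.

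**Figure D2:**
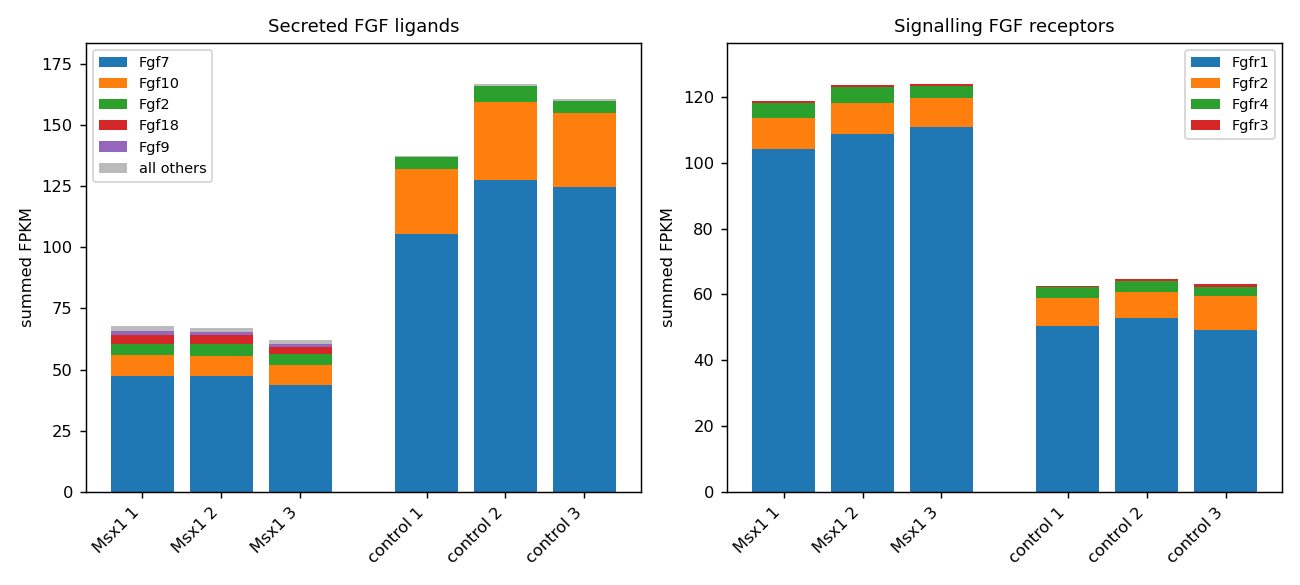
Summed FPKM of the secreted ligands (left) and of the signalling receptors (right) in each library, with the Msx1 libraries left of the control libraries and colours for the genes. Ligand sums are 65.5 ± 3.08 in Msx1 and 155 ± 15.6 in control libraries, while receptor sums are 122 ± 3.01 in Msx1 and 63.5 ± 1.03 in control libraries (SD, n = 3 each).

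The other 13 secreted ligands stayed below the minimum for testing. Fgf21, an endocrine ligand that acts with the coreceptor beta-Klotho, was closest to it at 0.964, 0.746 and 0.749 FPKM in the Msx1 libraries, against 0, 0.228 and 0.164 FPKM in the control libraries. Its groups did not overlap, on about 20, 16 and 15 fragments in the Msx1 libraries and 0, 4 and 4 in the control libraries. Fgf15, another endocrine ligand, was at 0.150, 0.278 and 0.132 FPKM in the Msx1 libraries, against 0.0243, 0 and 0.0696 FPKM in the control libraries, on about 6, 12 and 5 fragments in the Msx1 libraries and 1, 0 and 3 in the control libraries. Fgf3 was found in all 3 Msx1 libraries (0.0730, 0.0733 and 0.0874 FPKM, about 4 fragments in each) and was listed at 0 in all 3 control libraries. Fgf3, Fgf4 and Fgf15 are neighbours on chromosome 7 (starts at 144838612, 144861386 and 144896532), and Fgf4 was listed at 0 in every library. Fgf1 was at 0.350, 0.318 and 0.264 FPKM in the Msx1 libraries, against 0.196, 0.277 and 0.123 FPKM in the control libraries, and Fgf5 at 0.202, 0.0960 and 0.0380 FPKM in the Msx1 libraries, against 0.105, 0.129 and 0.138 FPKM in the control libraries, both with overlapping groups. Fgf8, Fgf17, Fgf22 and Fgf23 stayed at 0.363 FPKM or less in every library. Fgf6, known from skeletal muscle, and Fgf16 and Fgf20 were listed at 0 throughout. Of the 4 intracellular members, which bind sodium channels and do not act as ligands of the receptors, Fgf12 and Fgf13 were listed at 0 in every library and Fgf14 reached at most 0.0885 FPKM. Fgf11 was at 2.75, 2.11 and 2.31 FPKM in the Msx1 libraries, against 1.89, 2.02 and 1.90 FPKM in the control libraries. Its groups did not overlap, yet it was not called (log2 change 0.20, 95% interval 0.0057 to 0.40, adjusted p = 0.0767). With median-of-ratios scaling it was called higher (adjusted p = 0.0371), as with quantile normalization (adjusted p = 0.0405) and with totals made equal without Msx1 (adjusted p = 0.0372), and its most abundant transcript alone had a log2 change of -0.32 (adjusted p = 0.504). That transcript, NM_010198, was at 1.97, 0.213 and 2.29 FPKM in the Msx1 libraries, against 1.86, 1.96 and 1.75 FPKM in the control libraries. In Msx1 replicate 2 the other transcript, NM_001291104, held 89.9% of the gene.

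**Figure D3:**
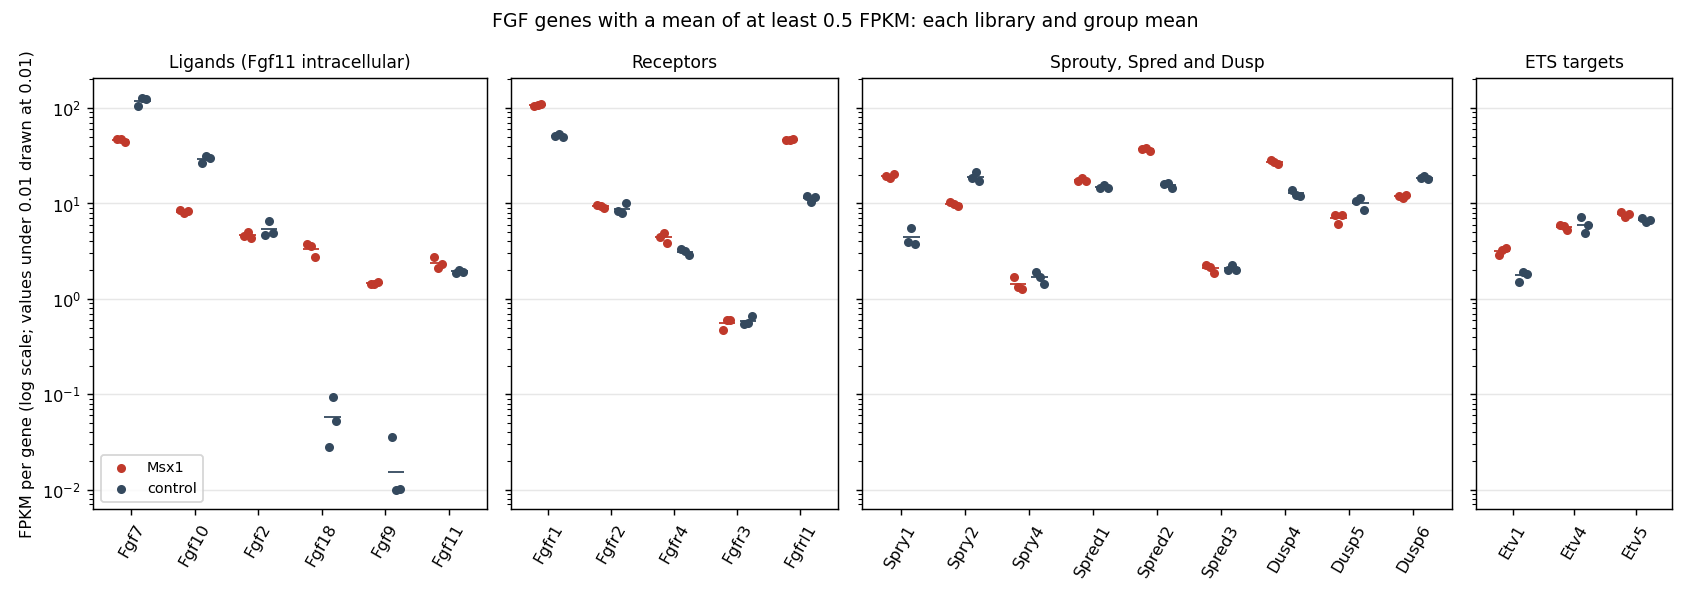
FPKM of the 23 FGF genes tested, on a log axis, with 1 point per library, Msx1 left of control, and a line at the group mean. Values under 0.01 are drawn at 0.01. The 3 Msx1 libraries of Fgfrl1 lie between 45.9 and 47.6 FPKM, above its control libraries at 10.4 to 11.9 FPKM.

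Of the receptor genes Fgfr1, Fgfr4 and the receptor-like Fgfrl1 rose, while Fgfr2 and Fgfr3 were not called. Fgfr1 (chromosome 8, 25518759 to 25575718), the receptor gene with the highest FPKM in all 6 libraries, was at 104, 109 and 111 FPKM in the Msx1 libraries, against 50.6, 53.0 and 49.3 FPKM in the control libraries. No Msx1 library overlapped a control library, and the Msx1 mean was higher by a ratio of 2.12 (log2 change 1.07, SE 0.051, adjusted p = 1.58e-06). Fgfrl1 (chromosome 5, 108694229 to 108706950), which binds FGFs but lacks the kinase domain of the signalling receptors, was at 45.9, 46.6 and 47.6 FPKM in the Msx1 libraries, against 11.9, 10.4 and 11.6 FPKM in the control libraries, higher by a ratio of 4.13 (log2 change 1.96, SE 0.059, adjusted p = 1.45e-07). Fgfr4 (chromosome 13, 55152818 to 55168759), known from regenerating muscle, was at 4.49, 4.95 and 3.81 FPKM in the Msx1 libraries, against 3.31, 3.19 and 2.90 FPKM in the control libraries, a smaller rise without overlap (log2 change 0.39, SE 0.092, adjusted p = 0.00837). Fgfr2 was at 9.64, 9.44 and 8.93 FPKM in the Msx1 libraries, against 8.30, 7.91 and 10.2 FPKM in the control libraries with overlapping groups (log2 change 0.084, 95% interval -0.13 to 0.29, adjusted p = 0.469), and Fgfr3 at 0.471, 0.597 and 0.603 FPKM in the Msx1 libraries, against 0.542, 0.555 and 0.660 FPKM in the control libraries, likewise overlapping (log2 change -0.026, 95% interval -0.21 to 0.15, adjusted p = 0.796). The order of FPKM, which is a level per length, was Fgfr1, Fgfr2, Fgfr4 and Fgfr3 in all 6 libraries, with no overlap between neighbours within a group. Fgfr1 held 88.3% ± 0.842 in Msx1 and 80.3% ± 1.93 in control libraries of the summed FPKM of the 4 signalling receptors, and Fgfr2 7.65% ± 0.459 in Msx1 and 13.9% ± 2.05 in control libraries (SD, n = 3 each).

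Single transcripts of the receptors moved together for Fgfr1 and apart for Fgfr2. Of 74 RefSeq transcripts of the FGF genes, 30 reached a mean of 0.5 FPKM, and among all transcripts tested 32.3% were called. Of the 30, 14 were called higher (background 13.6% of transcripts) and 6 lower (background 18.6%). The 14 include NM_013518 of Fgf9 and NM_008005 of Fgf18, which reached the minimum only through their Msx1 level and so had to differ. Some of the 14 are transcripts of the same gene, as for Fgfr1 and Spry1, and are not independent of each other. For Fgfr1, NM_001079909 was at 75.7, 84.3 and 83.5 FPKM in the Msx1 libraries, against 38.2, 39.5 and 37.4 FPKM in the control libraries (log2 change 1.06, adjusted p = 8.78e-05). NM_001079908 was at 21.5, 17.1 and 20.1 FPKM in the Msx1 libraries, against 8.30, 9.47 and 9.35 FPKM in the control libraries (log2 change 1.03, adjusted p = 7.90e-04). GENCODE gives NM_001079908 an exon of 267 bases (chromosome 8, 25555508 to 25555774) that is absent from NM_001079909, the exon known to encode the first immunoglobulin-like domain. The pair also differs in an exon starting at 25557731, of 84 bases in NM_001079908 and 90 bases in NM_001079909. The share of NM_001079908 in Fgfr1 was 20.7, 15.7 and 18.1% in the Msx1 and 16.4, 17.9 and 19.0% in the control libraries, with overlapping groups. NM_010206, the third Fgfr1 transcript, was called higher as well (log2 change 0.87, adjusted p = 0.00815). Whether NM_010206 holds the exon of 267 bases was not tested. The share of NM_001079908 is therefore not to be read as that of all transcripts with this exon. For Fgfr2, NM_001347638 was at 8.83, 8.38 and 8.35 FPKM in the Msx1 libraries, against 4.34, 5.77 and 4.83 FPKM in the control libraries (log2 change 0.68, adjusted p = 0.00452). NM_010207 went the other way, at 0.746, 1.03 and 0.548 FPKM in the Msx1 libraries, against 3.76, 2.14 and 5.35 FPKM in the control libraries (log2 change -1.37, adjusted p = 0.0126). Its share in Fgfr2 was 7.74, 10.9 and 6.13% in the Msx1 and 45.3, 27.0 and 52.5% in the control libraries, which were uneven among themselves but did not overlap the Msx1 libraries. NM_201601 holds an exon of 148 bases (chromosome 7, 130199758 to 130199905) where NM_010207 has one of 145 bases (130198419 to 130198563), the pair of exons that sets the IIIb and IIIc forms. As the exon nearer the start of the gene, which lies on the minus strand, that of NM_201601 is IIIb, the form Fgf7 and Fgf10 bind. NM_201601 was at 0.0584, 0.0268 and 0.0384 FPKM in the Msx1 libraries, against 0.192, 0 and 0.00864 FPKM in the control libraries, near 0 throughout. The exons of NM_001347638 were not compared here, and reads are divided among transcripts by estimation, so single transcripts are less certain than their sum. Ctbp2, on the same strand, overlaps Fgfr2 (14.6 FPKM in Msx1 and 13.99 in control cells). Whether reads of Ctbp2 entered the level of Fgfr2 or of its single transcripts was not tested.

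**Figure D4:**
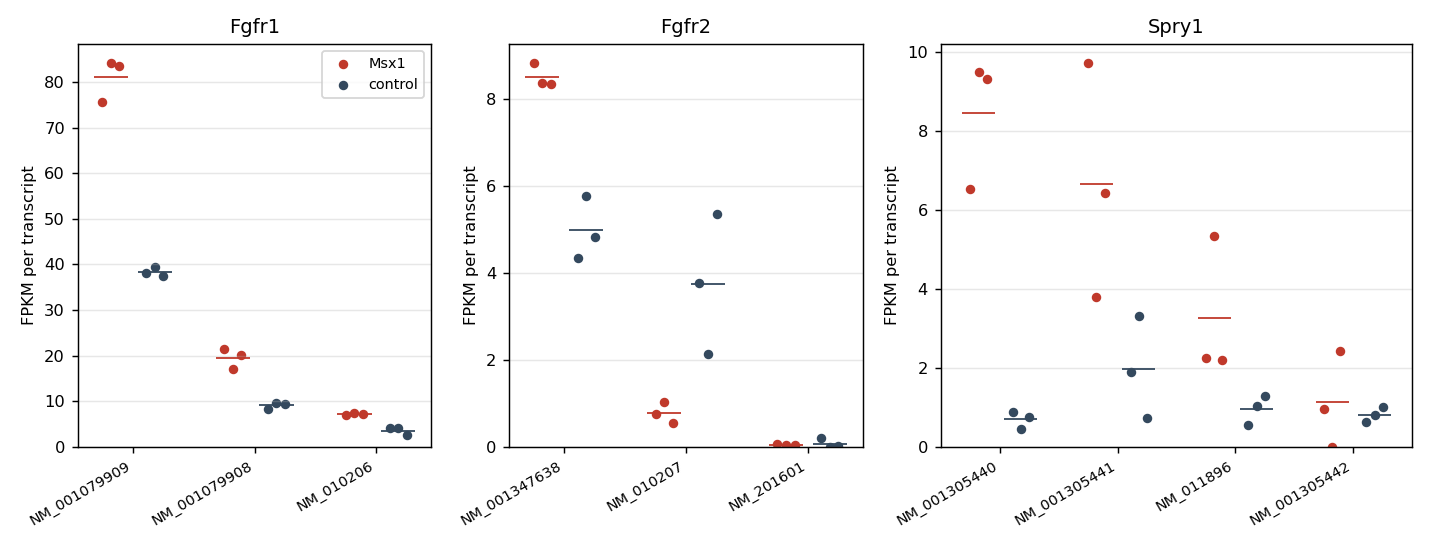
FPKM of single RefSeq transcripts of Fgfr1, Fgfr2 and Spry1, with 1 point per library, Msx1 left of control, and a line at the group mean. For Fgfr2 the Msx1 points lie above the control points for NM_001347638 and below them for NM_010207.

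The Sprouty genes, which block signalling between receptor and ERK and are themselves switched on by it, exchanged places. Spry1 (chromosome 3, 37639947 to 37644599) was at 19.5, 18.6 and 20.4 FPKM in the Msx1 libraries, against 3.95, 5.58 and 3.76 FPKM in the control libraries, higher by a ratio of 4.40 (log2 change 1.93, SE 0.12, adjusted p = 5.91e-06). Spry2 (chromosome 14, 105891947 to 105896819) was at 10.4, 9.94 and 9.49 FPKM in the Msx1 libraries, against 18.3, 21.6 and 17.3 FPKM in the control libraries, lower by a ratio of 1.92 (log2 change -0.87, SE 0.084, adjusted p = 7.41e-05). Neither gene had overlapping groups. In every Msx1 library Spry1 was above Spry2, and in every control library Spry2 was above Spry1. The share of Spry1 in the summed FPKM of the 4 genes was 62.7% ± 1.93 in Msx1 and 17.3% ± 1.60 in control libraries, and that of Spry2 32.0% ± 1.55 in Msx1 and 74.9% ± 1.19 in control libraries (SD, n = 3 each). The sum itself was 31.8, 30.1 and 31.4 FPKM in the Msx1 libraries, against 24.4, 29.2 and 22.8 FPKM in the control libraries. Spry4 was at 1.71, 1.34 and 1.26 FPKM in the Msx1 libraries, against 1.92, 1.69 and 1.43 FPKM in the control libraries with overlapping groups (log2 change -0.14, 95% interval -0.38 to 0.10, adjusted p = 0.281), and Spry3 stayed at or below 0.387 FPKM. Of the 4 Spry1 transcripts, NM_001305440 was at 6.54, 9.51 and 9.32 FPKM in the Msx1 libraries, against 0.876, 0.442 and 0.752 FPKM in the control libraries (log2 change 2.48, adjusted p = 2.49e-04). NM_001305441 was not called (adjusted p = 0.0536), and was called under 5 of 13 alternatives, among them those without control replicate 2 (adjusted p = 0.0365) and without Msx1 replicate 2 (adjusted p = 0.0476). NM_001305442 was not called either (adjusted p = 0.93). NM_011896 was called higher (adjusted p = 0.0468) but lost the call when any 1 of the 6 libraries was left out (adjusted p = 0.0596 to 0.12), with the replicate block (adjusted p = 0.0573) and without a filter (adjusted p = 0.0837).

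Of the Spred genes, whose products bring neurofibromin to the membrane to switch off Ras, Spred2 rose most. Spred2 (chromosome 11, 19924442 to 20024026) was at 37.3, 38.1 and 35.4 FPKM in the Msx1 libraries, against 15.8, 16.5 and 14.4 FPKM in the control libraries, higher by a ratio of 2.38 (log2 change 1.20, SE 0.063, adjusted p = 2.49e-06). Spred1 was at 17.4, 18.6 and 17.1 FPKM in the Msx1 libraries, against 14.4, 15.6 and 14.5 FPKM in the control libraries, a rise of small size without overlap (log2 change 0.24, SE 0.058, adjusted p = 0.00894). In the Msx1 libraries Spred2 was above Spred1 in all 3, and in the control libraries the values of both genes overlapped. Spred3 was at 2.24, 2.15 and 1.85 FPKM in the Msx1 libraries, against 1.98, 2.29 and 2.02 FPKM in the control libraries with overlapping groups (log2 change -0.0078, 95% interval -0.19 to 0.18, adjusted p = 0.942), and its exons overlap those of Ggn on the opposite strand.

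The 3 phosphatase genes of the set, whose products remove the activating phosphates of ERK, also divided. Dusp4 (chromosome 8, 34807610 to 34819894), a nuclear phosphatase, was at 28.4, 27.5 and 26.2 FPKM in the Msx1 libraries, against 13.8, 12.4 and 11.98 FPKM in the control libraries, higher by a ratio of 2.15 (log2 change 1.05, SE 0.066, adjusted p = 6.65e-06). Dusp6 (chromosome 10, 99263231 to 99267489), the cytoplasmic ERK phosphatase widely used as a readout of FGF signalling, was at 11.95, 11.4 and 12.4 FPKM in the Msx1 libraries, against 18.3, 19.2 and 18.1 FPKM in the control libraries, lower by a ratio of 1.56 (log2 change -0.60, SE 0.056, adjusted p = 5.80e-05). Dusp5 (chromosome 19, 53529145 to 53541809), a nuclear ERK phosphatase, was at 7.59, 6.05 and 7.54 FPKM in the Msx1 libraries, against 10.6, 11.5 and 8.55 FPKM in the control libraries (log2 change -0.47, SE 0.12, adjusted p = 0.0104). None of the 3 had overlapping groups. Dusp4 was above Dusp6 in every Msx1 library and below it in every control library, as was seen for Spry1 and Spry2. Their sum with Dusp5 was 47.9, 44.9 and 46.1 FPKM in the Msx1 libraries, against 42.8, 43.0 and 38.6 FPKM in the control libraries, so the totals of the family lay closer together than the genes did. Dusp4 made up 59.1% ± 2.24 in Msx1 and 30.7% ± 1.83 in control libraries of it, and Dusp6 25.7% ± 1.04 in Msx1 and 44.8% ± 2.03 in control libraries (SD, n = 3 each).

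The ETS factor genes, nuclear targets of FGF signalling, gave 1 call in 3, a rise of Etv1. Etv1 (chromosome 12, 38780082 to 38870483) was at 2.85, 3.28 and 3.44 FPKM in the Msx1 libraries, against 1.51, 1.93 and 1.84 FPKM in the control libraries, higher by a ratio of 1.81 (log2 change 0.60, SE 0.090, adjusted p = 7.91e-04). Etv4 was at 5.88, 5.86 and 5.25 FPKM in the Msx1 libraries, against 7.13, 4.89 and 5.97 FPKM in the control libraries with overlapping groups (log2 change -0.059, 95% interval -0.33 to 0.21, adjusted p = 0.689). Etv5 was at 8.16, 7.24 and 7.74 FPKM in the Msx1 libraries, against 7.03, 6.38 and 6.67 FPKM in the control libraries, without overlap, and missed the threshold (log2 change 0.18, 95% interval 0.024 to 0.33, adjusted p = 0.0525). It was called higher under the 3 other scalings (adjusted p = 0.00984 to 0.0337), with the replicate block (adjusted p = 0.0475) and without control replicate 1 (adjusted p = 0.0324). Across the 10 feedback inhibitors (Spry, Spred and Dusp genes) 4 rose (background 22.0%), 3 fell (background 32.4%) and 2 were not called. Spry3 was not tested. The summed FPKM of the 10 genes was 132 to 137 FPKM in Msx1 and 92.2 to 107 FPKM in control libraries.

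Other genes that serve FGF signalling were taken from a list by role, drawn up with earlier results of these data known. Of 91 such genes 83 were tested, of which 25 rose, 30 fell and 28 were not called, with a median log2 change of 0.022. The 25 include Fgfbp1, which reached the minimum only through its Msx1 level and so had to differ. The background was 22.0% higher and 32.4% lower. Scaling moved the split of the calls, to 32 higher and 26 lower with median-of-ratios factors, 28 higher and 28 lower with quantile normalization and 32 higher and 24 lower when totals were made equal with Msx1 left out.

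Of the coreceptors and FGF-binding genes, 6 of 11 tested rose (background 22.0%), 1 fell (background 32.4%) and 4 were not called (median log2 change 0.38). Gpc1, the heparan sulfate proteoglycan glypican-1, was at 743, 738 and 729 FPKM in the Msx1 libraries, against 247, 236 and 223 FPKM in the control libraries (log2 change 1.64, adjusted p = 4.43e-07). Its Msx1 libraries lay above its control libraries by a ratio of means of 3.13. Fgfbp1, a carrier that releases FGFs from the matrix, was at 3.10, 3.01 and 3.95 FPKM in the Msx1 libraries, against 0.0705, 0 and 0 FPKM in the control libraries (log2 change 2.08, adjusted p = 1.43e-06). Fgfbp1 reached the minimum for testing only through its Msx1 level and so had to differ. Its call therefore adds nothing to the count of 6 beside the background. Its log2 change was 4.84 with a pseudocount of 0.1. Cdh2, N-cadherin, which is known to bind Fgfr1, averaged 22.3 ± 1.21 FPKM in Msx1 and 43.1 ± 1.76 FPKM in control cells (log2 change -0.92, adjusted p = 6.91e-06). The Klotho coreceptor genes of the endocrine ligands, Kl and Klb, reached at most 0.0333 FPKM in any library. Among enzymes that build or trim heparan sulfate, 5 of 14 tested rose (background 22.0%), 3 fell (background 32.4%) and 6 were not called. Their median log2 change was 0.081. Extl3, which acts in starting the chain, averaged 49.9 ± 0.585 FPKM in Msx1 and 29.8 ± 0.990 FPKM in control cells (log2 change 0.73, adjusted p = 7.77e-06). The 6-O-sulfatase gene Sulf2 averaged 41.4 ± 4.14 FPKM in Msx1 and 66.6 ± 2.78 FPKM in control cells (log2 change -0.68, adjusted p = 1.59e-04), and the heparanase gene Hpse 6.19 ± 0.402 FPKM in Msx1 and 10.9 ± 0.773 FPKM in control cells (log2 change -0.73, adjusted p = 9.21e-05) (SD, n = 3 each).

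Of the adaptors between receptor and Ras, 3 of 11 tested rose (background 22.0%), 3 fell (background 32.4%) and 5 were not called. Their median log2 change was 0.15. These counts rested on small changes. They were 4 higher and 0 lower under median-of-ratios scaling, and leaving out any 1 of the 6 libraries gave 1 to 4 higher and at most 1 lower, with 1 higher and 0 lower for Msx1 replicate 1. Plcg1, a phospholipase bound by the active receptor, averaged 28.4 ± 0.674 FPKM in Msx1 and 22.9 ± 0.703 FPKM in control cells (log2 change 0.30, adjusted p = 0.0013). The docking protein gene Frs2 averaged 16.95 ± 0.637 FPKM in Msx1 and 20.5 ± 2.06 FPKM in control cells (log2 change -0.26, adjusted p = 0.0225), and lost its call in 6 of 14 alternatives, among them the 4 without control replicate 2 (adjusted p = 0.0531), control replicate 3 (adjusted p = 0.0639), Msx1 replicate 1 (adjusted p = 0.0713) and Msx1 replicate 3 (adjusted p = 0.0716). The Ras activator gene Sos2 averaged 7.69 ± 0.282 FPKM in Msx1 and 6.31 ± 0.531 FPKM in control cells (log2 change 0.25, adjusted p = 0.0187), and lost its call without Msx1 replicate 1 (adjusted p = 0.0726) and without Msx1 replicate 2 (adjusted p = 0.0536). Of the Ras-ERK cascade 0 of 14 tested rose (background 22.0%), 6 fell (background 32.4%) and 8 were not called. The median log2 change of the cascade was -0.10, beside -0.067 over all genes tested. Median-of-ratios scaling gave 1 higher and 5 lower, and equal totals 2 higher and 5 lower. The Ras gene Nras averaged 18.1 ± 0.877 FPKM in Msx1 and 27.6 ± 1.08 FPKM in control cells (log2 change -0.58, adjusted p = 8.09e-05), the related gene Rras2 15.96 ± 1.31 FPKM in Msx1 and 24.1 ± 1.60 FPKM in control cells (log2 change -0.56, adjusted p = 4.12e-04) and the ERK-activated kinase gene Rps6ka1 0.810 ± 0.0539 FPKM in Msx1 and 2.04 ± 0.414 FPKM in control cells (log2 change -0.74, adjusted p = 5.68e-04) (SD, n = 3 each).

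Of the genes listed as negative regulators, outside the Spry, Spred and Dusp4 to Dusp6 genes, 6 of 15 tested rose, 5 fell and 4 were not called. The background was 22.0% higher and 32.4% lower, and the median log2 change of these genes was -0.019. Whether all of them, among them Lzts1 and Peak1, inhibit FGF signalling in these cells was not tested. The count moved to 3 higher and 6 lower without control replicate 1, 3 higher and 5 lower without control replicate 3, 2 higher and 5 lower without Msx1 replicate 1 and 3 higher and 5 lower without a filter. Il17rd, the FGF antagonist Sef, averaged 8.43 ± 0.353 FPKM in Msx1 and 4.99 ± 0.709 FPKM in control cells (log2 change 0.66, adjusted p = 5.16e-04). Errfi1, an inhibitor of the EGF receptor that ERK induces, averaged 21.4 ± 0.127 FPKM in Msx1 and 45.3 ± 5.23 FPKM in control cells (log2 change -1.04, adjusted p = 2.11e-05), and Lzts1 averaged 1.18 ± 0.169 FPKM in Msx1 and 2.57 ± 0.281 FPKM in control cells (log2 change -0.71, adjusted p = 3.53e-04) (SD, n = 3 each). Of other genes that respond to ERK, 5 of 18 tested rose (background 22.0%), 12 fell (background 32.4%) and 1 was not called. Their median log2 change was -0.61. The count was 3 higher and 11 lower without control replicate 3 and 3 higher and 11 lower without Msx1 replicate 2. Egr1, an immediate early gene, was at 27.7, 27.7 and 27.8 FPKM in the Msx1 libraries, against 152, 179 and 128 FPKM in the control libraries (log2 change -2.41, adjusted p = 1.16e-06). Its Msx1 libraries lay close together and below every control library. Fos, another immediate early gene, was at 2.88, 2.27 and 3.06 FPKM in the Msx1 libraries, against 15.5, 19.5 and 11.2 FPKM in the control libraries (log2 change -2.11, adjusted p = 3.28e-05). Phlda1 was at 11.8, 11.7 and 12.7 FPKM in the Msx1 libraries, against 34.4, 36.6 and 34.8 FPKM in the control libraries (log2 change -1.47, adjusted p = 4.24e-07). Not all genes of the list fell. Ccnd1, the cyclin D1 gene, was at 289.8, 276 and 288 FPKM in the Msx1 libraries, against 116, 98.2 and 96.7 FPKM in the control libraries (log2 change 1.45, adjusted p = 2.82e-06), and Ier3 averaged 62.9 ± 1.07 FPKM in Msx1 and 43.5 ± 4.41 FPKM in control cells (log2 change 0.53, adjusted p = 5.65e-04). Ccnd1 and Ier3 are named after their values were seen.

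**Figure D5:**
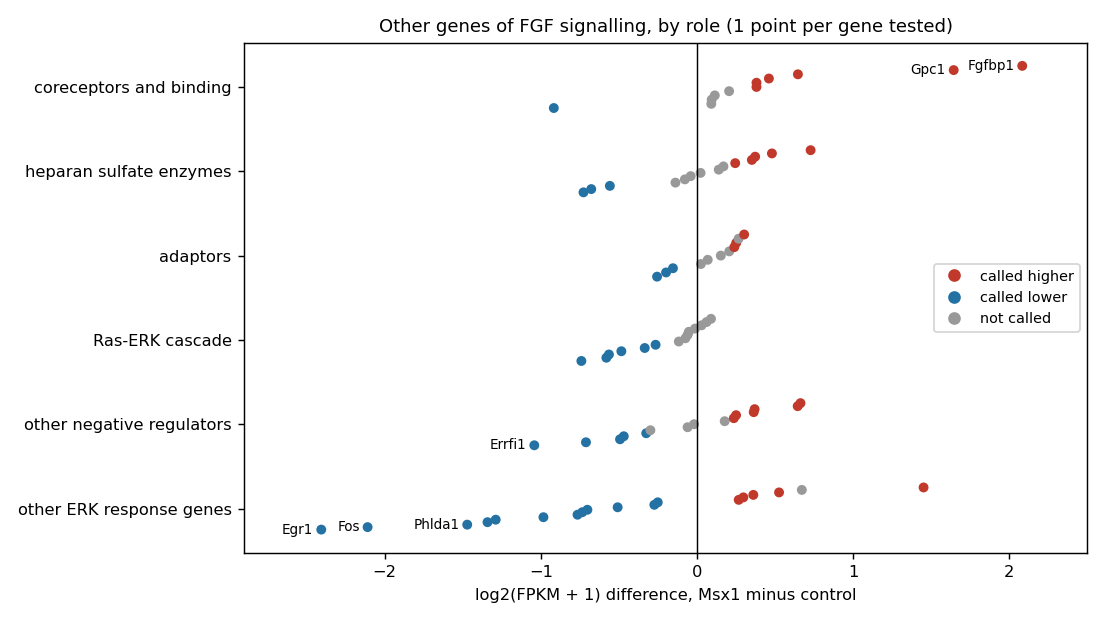
Log2(FPKM + 1) difference, Msx1 minus control, of the 83 other FGF signalling genes tested, in a band per role and coloured by call. Coreceptor and binding genes reach 2.08 (Fgfbp1), and ERK response genes -2.41 (Egr1).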

How the data were processed

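The authors deposited 1 table of FPKM with 1 column per library and 38468 RefSeq transcripts. The submitters' processing notes name HISAT2, StringTie and Trimmomatic and the build GRCm38 (mm10), without versions, settings or use of strand (not given in the sources used here). Control columns were matched to control samples by their number. Symbols came from the RefSeq gene table of GRCm38.p6 for 38193 transcripts and from GENCODE M21 for 156, and 119 kept their identifier. FPKM were summed per gene.

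The test was limma 3.58.1 (R 4.3.3) on log2(FPKM + 1) with a trend in the prior variance, over genes averaging 0.5 FPKM or more across the 6 libraries, and likewise over single transcripts. The scale understates changes of low genes. FPKM are relative to the library total, so abundant transcripts shift the rest. Depth was estimated from the step that 1 fragment makes in low values. Since 36.2% to 41.0% of the low values fell within 0.1 of whole multiples of it, whole reads could not be had and depth is only rough. The labels do not say whether replicates were separate cultures. The p-values set each difference against the spread between these libraries, which may be technical only.

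Members and lists were chosen with earlier results of these data known. Named members are those called with an absolute log2 change of at least 0.5 or at 10 FPKM or more in a group mean, and all others are accounted for. Of the other signalling genes, up to 3 called genes per role with the largest change are named. Alternatives were a pseudocount of 0.1, no filter or one at 1 FPKM, 3 scalings, a replicate block, the most abundant transcript, and each library left out.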

Additional observations from a re-analysis of the deposited data

How the results depend on the processing

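All 15 FGF genes called kept their call and direction under every alternative in which they were tested. Fgf9 was below the minimum of 1 FPKM and had no value there. A pseudocount of 0.1 moved called log2 changes of low genes by over 1.5 times, to 4.46 for Fgf18, 3.77 for Fgf9, 4.84 for Fgfbp1, -1.22 for Rps6ka1, -2.08 for the Fgfr2 transcript NM_010207 and 1.61 for the Spry1 transcript NM_011896. Over the 14 alternatives the members called higher numbered 9 to 14, and 5 were called lower in each. Gained calls were those of Etv5, Fgf11, Fgf21, the most abundant Fgfr2 transcript (log2 change 0.68, adjusted p = 0.00176) and, without a filter, Fgf3, Fgf14 and Fgf15, whose tests rest on a few fragments. All genes tested gave 2718 higher and 4014 lower, but 3321 higher and 3155 lower with median-of-ratios scaling, 3082 higher and 3617 lower with quantile normalization and 3503 higher and 2807 lower with totals made equal without Msx1, which shifted the median change most, by 0.10. Genes that were not called changed sign as follows. Fgfr3 was at 0.0015 with median-of-ratios scaling, 0.014 with equal totals, and -0.048 to 0.014 with 1 library left out. Spred3 was at 0.045, 0.031 and 0.068 under the 3 scalings, and -0.045 to 0.047 with 1 library left out. Etv4 was at 0.0063 and 0.038 under 2 scalings, 0.10 by its most abundant transcript and -0.18 to 0.055 with 1 library left out. Fgf11 was at -0.32 by its most abundant transcript. The Spry1 transcript NM_001305442 was at -0.48 with a pseudocount of 0.1, and -0.37 to 0.52 with 1 library left out. For these sign changes the cause was not tested. Alternatives for single transcripts were chosen after seeing the data. Same-numbered libraries had correlations of deviations of 0.055, 0.226 and 0.037 (other pairs -0.203 to 0.133), not all over 0.1, so the numbers do not show a pairing. Not every library correlated best with its own number. The replicate block gave 11 members higher and 5 lower, and 2692 higher and 4055 lower over all genes. Untested ligands with a single transcript rest on about 31 fragments or fewer per library, so small differences in them are not detectable at this depth.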

Other observations

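The 2 RefSeq transcripts of Fgf18 were listed in different groups. The messenger RNA NM_008005 was at 3.79, 3.58 and 2.73 FPKM in the Msx1 libraries, against 0, 0.0262 and 0 FPKM in the control libraries. The non-coding transcript NR_102395 was listed at 0, 0 and 0 FPKM in the Msx1 libraries and at 0.0277, 0.0680 and 0.0529 FPKM in the control libraries, a level of a few fragments at most. The minor Fgfrl1 transcript NM_001164259 was at 0.675, 1.38 and 4.95 FPKM in the Msx1 libraries, against 0.283, 0.402 and 0.0253 FPKM in the control libraries and was not called (adjusted p = 0.102), with most of its FPKM in Msx1 replicate 3, while NM_054071 carried the rise of the gene (log2 change 1.91, adjusted p = 2.40e-05).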
